A study of Mus musculus with 20 samples.

Results

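T cell receptor α chains joined through the J genes TRAJ7, TRAJ15 and TRAJ23 were examined in peripheral CD8 T cells of mice with 4 genotypes. Members were all in-frame α clonotypes whose J gene was 1 of these 3, split by whether the V gene belonged to the TRAV12 family. A clonotype is a distinct combination of V gene, J gene and CDR3 nucleotide sequence in 1 mouse, where CDR3 is the stretch across the V-J junction. There were 23779 such clonotypes among 212828 in-frame clonotypes of 17 mice, or 11.2%. TRAJ7 gave 5686 of them (2000 with TRAV12), TRAJ15 gave 8514 (2808 with TRAV12) and TRAJ23 gave 9579 (2899 with TRAV12). The 3 genes were chosen by the read abundance of their TRAV12 sequences in comparisons of these same genotypes. Levels of in-frame TRAV12 sequences by genotype are therefore described here without a test.

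All mice were males of 9 to 12 weeks on the C57BL/6 (B6) background, and the labels name no treatment. WT mice were unmodified. β5i-KO mice lack β5i, the immunoproteasome subunit encoded by Psmb8. β5t-KO mice lack β5t, the thymoproteasome subunit encoded by Psmb11. BIT mice carry the Psmb11 sequence at the translation start of Psmb8, so that β5t is made instead of β5i. Several BIT lines were made, and the study used 1 of them unless it stated otherwise. CD8 T cells (TCRβ high, CD4-CD8+; 1000000 per mouse) were sorted from lymph nodes and spleens per the protocol, while the labels name lymph nodes alone. The groups compared held 4 BIT mice, 4 β5t-KO mice, 5 β5i-KO mice and 4 WT mice. WT replicate 5 was not analysed here. β5t-KO replicate 5 and BIT replicate 3 were left out, with 24 and 475 in-frame clonotypes. TCR α libraries do not measure Psmb8, Psmb11 or CD8 markers, so neither the genotype nor the sort could be checked against them.

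The α locus rearranges in thymocytes by joining 1 of many V genes to 1 of many J genes, with loss and untemplated addition of bases at the junction. CDR3α runs from a conserved cysteine near the end of the V gene to a conserved phenylalanine or its equivalent in the J gene, and it contacts the peptide presented by MHC. Positive selection in the thymic cortex keeps CD8 lineage cells whose receptor binds peptide-MHC class I on cortical thymic epithelial cells, where the thymoproteasome shapes the peptides. Out-of-frame joins encode no receptor and are carried as passengers by cells whose other allele is productive.

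The germline J segments are shown first, because their opening codons make up the shared part of the sequences described below. Each line gives the part of the J gene that falls within CDR3, read from GRCm39 with the GENCODE vM39 annotation, with the first in-frame tyrosine codon in capitals. All 3 genes lie on the plus strand of chromosome 14, TRAJ23 at chr14:54433538-54433597, TRAJ15 at chr14:54441879-54441938 and TRAJ7 at chr14:54448927-54448985.
TRAJ23: tgaatTATaaccaggggaagcttatcttt
TRAJ15: ccTACcagggaggcagagctctgatattt
TRAJ7: ggacTACagcaacaacagacttactttg
TRAV12-1: tgtgctctgagtga
The last line is the end of TRAV12-1 from the conserved cysteine codon, at chr14:53776182-53776195 on the same strand. A tyrosine codon stood among the first 3 codons of the CDR3 part in 8 of the 43 TRAJ genes seen, these 3 included.

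The most abundant nucleotide sequences of the leading TRAV12 joins are shown next, because they separate the bases each germline end supplies from those added between them. Capitals mark bases found in neither the TRAV12-1 end nor the J segment.
TRAJ23, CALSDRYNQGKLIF: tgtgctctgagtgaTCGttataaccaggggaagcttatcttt
TRAJ7, CALSDRYSNNRLTL: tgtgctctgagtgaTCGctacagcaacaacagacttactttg
TRAJ15 with arginine then tyrosine: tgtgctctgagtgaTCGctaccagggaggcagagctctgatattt
TRAJ15 with arginine then arginine: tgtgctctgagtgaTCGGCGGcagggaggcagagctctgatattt
TRAJ15, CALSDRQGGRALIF: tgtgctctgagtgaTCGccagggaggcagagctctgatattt
The first 3 sequences share the residues CALSDRY, called here the arginine-tyrosine junction. CALSD comes from TRAV12-1 with 1 added base, arginine spans the junction and tyrosine comes from the J segment or its edge. Each of these 3 needed 3 bases beyond the germline ends. The arginine-arginine form of TRAJ15 lacked the J-encoded tyrosine and needed 7. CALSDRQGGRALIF kept the arginine, whose last base came from the end of the germline tyrosine codon, and went on with glutamine.

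The 17 libraries held 1983032 to 8480570 reads, 13519 to 555786 in-frame unique molecules and 656 to 28641 in-frame clonotypes. β5t-KO replicate 2 had the fewest clonotypes and β5i-KO replicate 4 the fewest molecules. A unique molecule is a transcript counted once by its identifier, and levels are given as molecules per 1000000 in-frame molecules of the library (CPM). A higher level can come from more cells of a clone or more α transcript per cell, and these cannot be told apart in bulk RNA. Limits for counts of 0 are set at 3 molecules over the group and cover counting error only. Between 68.0% and 73.6% of the TRAV12 clonotypes of each join listed more than 1 V gene of similar sequence, so V genes within the family are uncertain.

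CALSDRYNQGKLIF of TRAJ23 was the most abundant member. Its level was 55594, 54033, 42792 and 60922 CPM in β5t-KO replicates 1 to 4. It was 8591, 7830, 12051 and 4203 CPM in WT replicates 1 to 4. None of the 4 β5t-KO mice compared overlapped a WT mouse, and the means were 53335 ± 7623 and 8169 ± 3219 CPM (SD, n = 4 each), a ratio of 6.53. In β5i-KO replicates 1 to 5 it was 896, 3286, 742, 1553 and 1490 CPM, and in BIT replicates 1, 2, 4 and 5 it was 151, 339, 560 and 155 CPM. The 4 groups thus lay apart in the order β5t-KO, WT, β5i-KO, BIT. β5t-KO replicate 5, left out of the comparison, had 0 of 1112 in-frame molecules. By molecules alone this allows a share of up to 0.27%, against 4.28% to 6.09% in the 4 β5t-KO mice compared. That library held only 24 in-frame clonotypes, so whether this mouse goes against the order cannot be told. BIT replicate 3, also left out, had 0 of 43493 in-frame molecules. The WT mean was 5.13 times that of β5i-KO mice and 27.1 times that of BIT mice.

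CALSDRYSNNRLTL of TRAJ7 had the same order of means at lower levels. It stood at 16919, 13102, 17239 and 28921 CPM in β5t-KO mice and at 3658, 1269, 2601 and 1195 CPM in WT mice, a ratio of means of 8.73 without overlap. β5i-KO replicates 1 to 5 had 552, 612, 367, 148 and 1035 CPM, all below every WT mouse. BIT replicates 1, 2, 4 and 5 had 167, 287, 350 and 101 CPM, so that BIT and β5i-KO mice overlapped. The WT mean exceeded the BIT mean 9.65-fold.

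TRAJ15 carried the arginine-tyrosine junction at much lower levels. The form with arginine then tyrosine stood at 556, 5611, 363 and 2344 CPM in β5t-KO mice and at 280, 96.7, 206 and 146 CPM in WT mice, which did not overlap. It was seen in 1 of 5 β5i-KO mice, replicate 1 at 67.7 CPM. None of 836143 in-frame molecules pooled over the BIT mice carried it, which allows up to 3.59 CPM. The WT mean was 50.7 times that pooled limit and the β5t-KO mean 618 times. These ratios of means are not lower bounds for single mice. BIT replicate 2 alone allows up to 0.00391% of its in-frame molecules.

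The other leading TRAJ15 sequences showed 2 more patterns. The form with arginine then arginine stood at 1483, 5517, 3289 and 2165 CPM in β5t-KO mice, was found in WT replicate 4 alone among WT mice at 41.4 CPM and in 3 of 4 BIT mice at up to 44.5 CPM. None of 725474 β5i-KO molecules carried it, which allows up to 4.14 CPM. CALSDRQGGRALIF, which has no tyrosine after the arginine, did not separate the groups. Its mean was 1772 ± 1589 CPM for WT and 1122 ± 695 CPM for β5t-KO mice (SD, n = 4 each). It was 470 ± 269 CPM for BIT (SD, n = 4) and 913 ± 632 CPM for β5i-KO mice (SD, n = 5), and each of these groups overlapped WT mice.

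**Figure D1:**
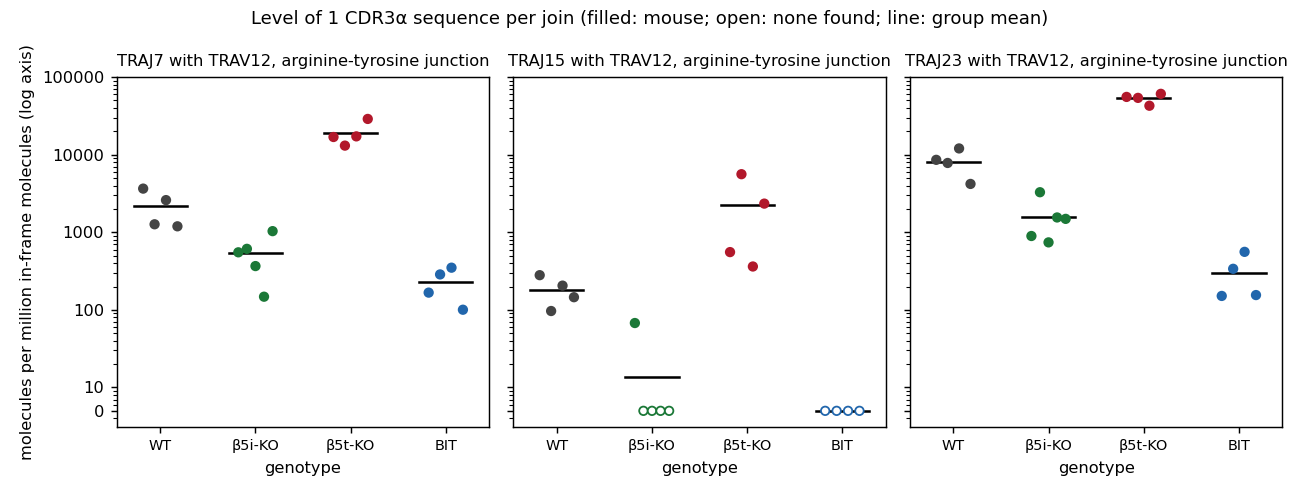
Level of 1 CDR3α sequence per join in each mouse, on a log axis in molecules per 1000000 in-frame molecules. Filled points are mice, open points at the tick marked 0 are mice without the sequence, and lines are group means. β5t-KO mice lie above WT mice in every panel, and BIT mice lie below WT mice.

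Each of the other 4 leading TRAV12 sequences of TRAJ7 and TRAJ23 had its highest mean in β5i-KO mice. CALSDNYSNNRLTL of TRAJ7, with asparagine in place of arginine, averaged 1528 ± 976 CPM in β5i-KO mice (SD, n = 5) and 416 ± 56.6 CPM in WT mice (SD, n = 4), which did not overlap. CALSDLYSNNRLTL, with leucine there, averaged 1590 ± 777 CPM in β5i-KO and 383 ± 371 CPM in WT mice, which overlapped. The sequence was 49.5 ± 53.5 CPM in BIT mice, below every WT mouse. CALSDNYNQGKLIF of TRAJ23 averaged 1183 ± 537 CPM in β5i-KO and 593 ± 529 CPM in WT mice, with overlap. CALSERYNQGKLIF, where glutamate replaces aspartate before the arginine and tyrosine, averaged 1185 ± 708 CPM in β5i-KO and 277 ± 169 CPM in WT mice without overlap. In β5t-KO mice these 4 sequences averaged 201, 189, 183 and 621 CPM in that order, and each was missing from at least 1 of 4 mice.

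The arginine-tyrosine junctions were built from many nucleotide sequences. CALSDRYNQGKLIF had 17 nucleotide versions over the 17 mice, 2 to 10 in a mouse, that together used all 6 arginine codons. The version shown above held 32.8% of its molecules. The mean level was highest in β5t-KO mice for 6 of 6 codons and lower in BIT than in WT mice for 6 of 6. CALSDRYSNNRLTL had 13 versions, 1 to 7 in a mouse, with 77.5% of molecules in the version shown, and 5 of 5 codons were highest in β5t-KO mice, while 4 of 5 were lower in BIT than in WT mice. The TRAJ15 form had 10 versions, 0 to 5 in a mouse, and 4 of 5 codons were highest in β5t-KO mice, while 3 of 5 were lower in BIT than in WT mice. All of its codons were at 0 CPM in BIT mice, and CGA and CGT were also at 0 CPM in WT mice. The next versions of TRAJ23 in order of abundance differed from the shown 1 at the added bases.
CGG codon: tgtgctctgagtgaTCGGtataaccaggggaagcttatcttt
CGA codon: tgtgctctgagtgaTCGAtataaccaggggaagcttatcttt
CGC codon: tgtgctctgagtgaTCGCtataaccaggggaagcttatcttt
AGG codon: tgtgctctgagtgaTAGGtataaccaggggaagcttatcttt
The CGG version averaged 13951 CPM in β5t-KO, 2205 in WT, 716 in β5i-KO and 32.3 in BIT mice. The CGC version averaged 4404, 545, 194 and 0 CPM and the AGG version 2543, 328, 213 and 17.3 CPM in the same order. The genotypes thus had the same order of means for these 3 codons.

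The order of genotypes differed with the V gene end. The leucine codon within CALS was read as ctg in most TRAV12 clonotypes of these joins (69.7% in WT mice), the spelling of TRAV12-1, and as ttg in 14.5%. With ctg, CALSDRY sequences of the 3 joins together stood at 75800 ± 14146 CPM in β5t-KO, 10688 ± 3980 in WT, 1948 ± 821 in β5i-KO and 340 ± 412 in BIT mice (SD). With ttg, the same residues stood at 8.63 ± 17.3, 58.5 ± 77.6, 244 ± 344 and 236 ± 111 CPM in that order. Sequences assigned to TRAV12-1 stood at 75335 CPM in β5t-KO mice. CALSDRY with ttg was seen in 1 of 4 β5t-KO, 3 of 4 WT, 4 of 5 β5i-KO and 4 of 4 BIT mice. It ran from 0 to 34.5 CPM in β5t-KO and 0 to 170 CPM in WT mice. In β5i-KO mice it ran from 0 to 844 CPM and in BIT mice from 140 to 365 CPM. Only β5t-KO and BIT mice did not overlap.

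Shares of clonotypes and of molecules gave different pictures of the TRAV12 joins. TRAJ23 with TRAV12 made 1.42%, 1.98%, 1.54% and 1.66% of in-frame clonotypes in β5t-KO mice and 1.70%, 1.89%, 1.46% and 1.39% in WT mice, which overlapped. The same join made 6.81%, 6.27%, 5.68% and 7.50% of molecules in β5t-KO mice and 2.20%, 2.56%, 2.67% and 1.96% in WT mice, which did not. In BIT mice both shares were below every WT mouse, at 1.18% ± 0.0689 of clonotypes and 1.38% ± 0.201 of molecules (SD, n = 4). TRAJ7 with TRAV12 made fewer of the clonotypes in β5t-KO than in WT mice, 0.726% ± 0.109 against 1.27% ± 0.328 (SD, n = 4 each), without overlap. Its share of molecules ran the other way, 2.41% in β5t-KO and 1.59% in WT mice on average, with overlap. TRAJ15 with TRAV12 averaged 1.42% of clonotypes and 1.48% of molecules in β5t-KO, against 1.79% and 2.15% in WT mice, with overlap. In BIT mice it averaged 1.18% of clonotypes and 1.43% of molecules, both below every WT mouse. Over all 43 TRAJ genes the ratio of TRAV12 molecules between β5t-KO and WT mice had a median of 0.925. It was 2.80 for TRAJ23, 1.52 for TRAJ7 and 0.689 for TRAJ15, which ranked 2, 6 and 29 of 43. TRAJ28 ranked 1, at 3.09, and TRAJ52, TRAJ50 and TRAJ32 also ranked above TRAJ7. Between BIT and WT mice the median was 0.854. There TRAJ23, TRAJ7 and TRAJ15 ranked 43, 39 and 42, at 0.586, 0.691 and 0.665. The abundance of TRAV12 sequences in these comparisons chose the genes, so the ranks are a description and no support for the choice.

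**Figure D2:**
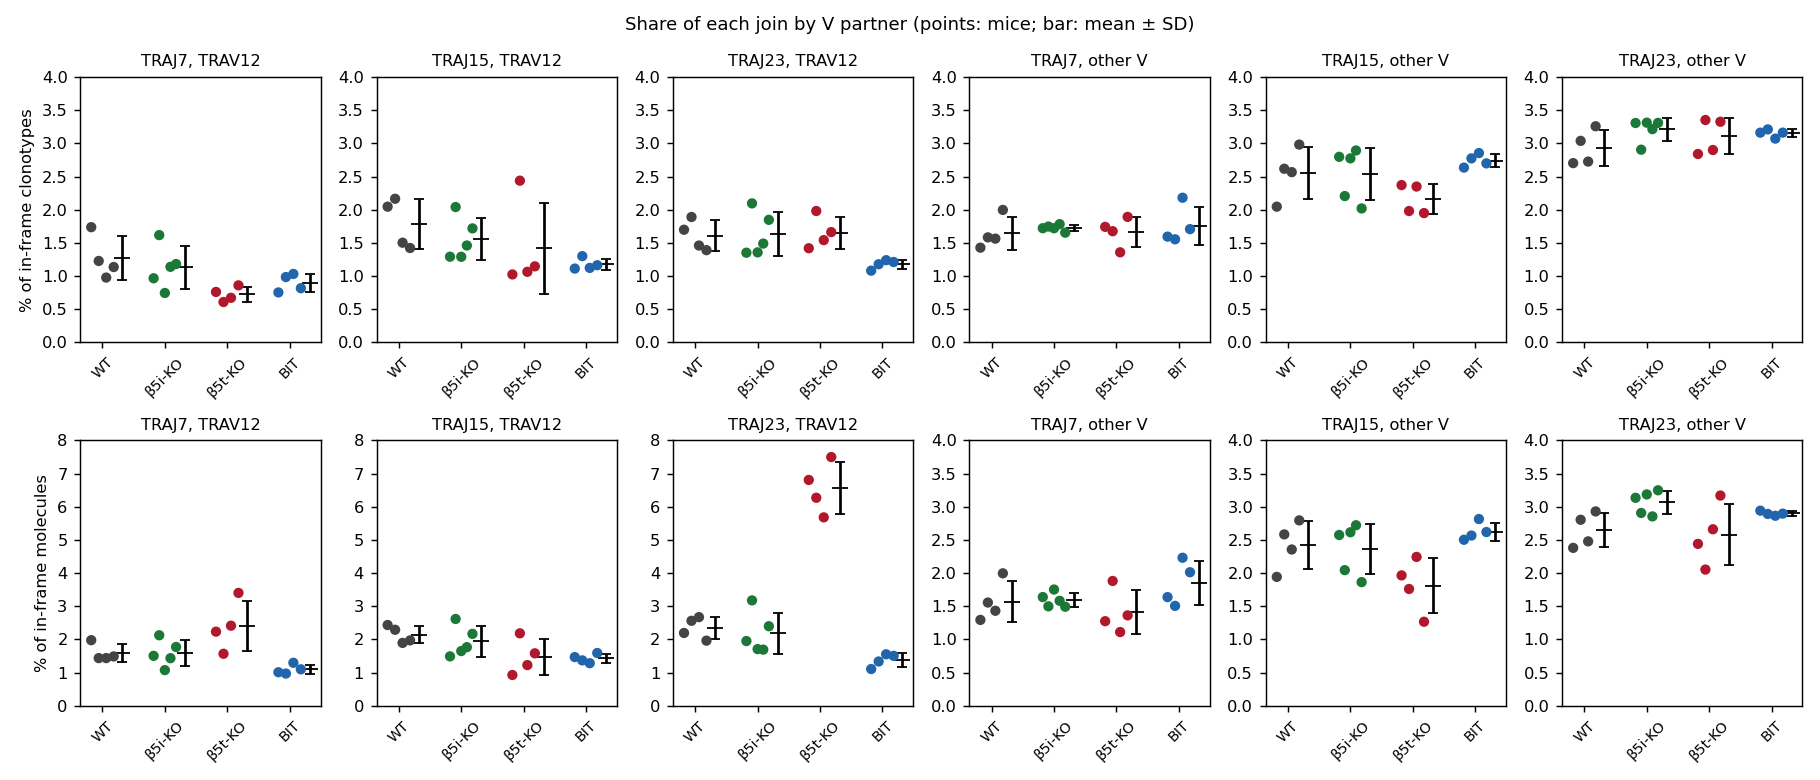
Share of each join among in-frame clonotypes (top) and in-frame molecules (bottom) in percent, split by TRAV12 or other V partner. Points are mice and bars are group mean ± SD. The molecule share of TRAJ23 with TRAV12 is 5.68% or more in β5t-KO mice, above all other mice, while its clonotype share overlaps that of WT mice.

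The molecule shares were then split by the arginine-tyrosine junction. It held 82.5% ± 3.98 of the TRAV12 molecules of TRAJ23 in β5t-KO mice, 34.6% ± 10.7 in WT, 7.15% ± 2.53 in β5i-KO and 2.30% ± 1.36 in BIT mice (SD). For TRAJ7 it held 79.4% in β5t-KO, 13.9% in WT and 2.2% in BIT mice on average, and for TRAJ15 12.5%, 0.849% and 0%. With these sequences taken out, every β5t-KO mouse had a smaller share of remaining TRAV12 molecules of each join than any WT mouse. The ratios of means were 0.355 for TRAJ7, 0.590 for TRAJ15 and 0.746 for TRAJ23. These are shares of all in-frame molecules, those with the junction included. The other TRAJ genes were not treated in the same way, so the fall cannot be called particular to these joins. With all junctions kept, TRAV12 molecules had a β5t-KO over WT ratio above 1 for 15 of 43 TRAJ genes. With the junction taken out, the ratio for BIT over WT was 0.788, 0.670 and 0.884 for TRAJ7, TRAJ15 and TRAJ23, and TRAJ15 alone did not overlap.

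**Figure D3:**
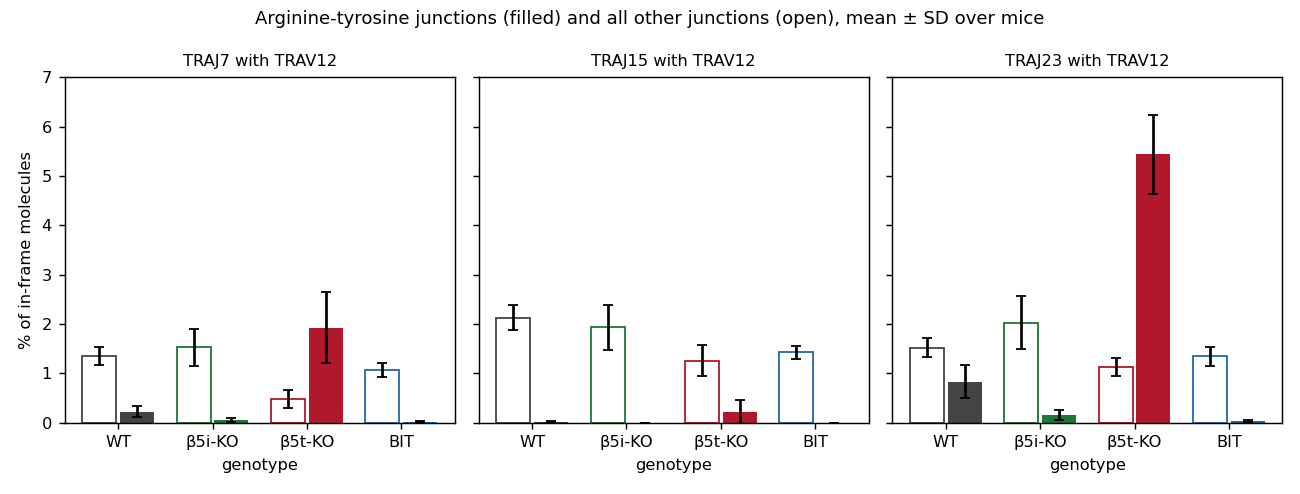
Molecules of each join with TRAV12 in percent of all in-frame molecules, mean ± SD over mice of each genotype. Filled bars are arginine-tyrosine junctions and open bars are all other junctions of the same join. In β5t-KO mice the filled bars of TRAJ7 and TRAJ23 exceed the open ones, and each open bar is below that of WT mice.

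CALSDRY was not limited to these J genes. It occurred with 34 TRAJ genes. Of these genes 29 had their highest mean in β5t-KO mice, and 21 had a lower mean in BIT than in WT mice. Over all TRAJ genes it reached 90159 ± 16084 CPM in β5t-KO, 13853 ± 5067 in WT, 3610 ± 1140 in β5i-KO and 1346 ± 570 in BIT mice (SD). TRAJ7, TRAJ15 and TRAJ23 held 84.0%, 77.3%, 58.6% and 41.8% of it on average in that order. Outside them it stood at 14351 ± 3023, 3107 ± 1082, 1418 ± 295 and 770 ± 310 CPM. TRAJ32 had the most of the rest in β5t-KO mice, at 5565 CPM, and in WT mice, at 953 CPM. In β5i-KO and BIT mice TRAJ26 exceeded it, at 884 against 212 CPM and 213 against 141 CPM. Both genes were singled out after their values were seen. Among CALSDR sequences of the 3 joins, tyrosine followed the arginine at 75808 CPM in β5t-KO mice and aspartate at 381 CPM, against 10746 and 1973 CPM in WT mice. In BIT mice tyrosine stood at 576 CPM and aspartate, at 1403 CPM, was the higher on average.

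The same J genes with V genes outside TRAV12 had no sequence with a mean above 460 CPM over all mice. Their leading V partners were TRAV3D-3, TRAV14D-1 and TRAV7-4 for TRAJ7, TRAV7-3, TRAV3D-3 and TRAV8D-2 for TRAJ15, and TRAV7-4, TRAV16N and TRAV14D-1 for TRAJ23. These held from 3.51% to 10.7% of the join's clonotypes outside TRAV12 on average in a genotype. TRAV12 held from 27.2% to 43.3% of all clonotypes of the join, so the 2 ranges have different denominators. The most abundant sequence over all mice was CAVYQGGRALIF of TRAJ15, at 649 ± 343 CPM in WT and 434 ± 189 CPM in BIT mice (SD), with overlap. Its mean was 262 ± 394 CPM in β5t-KO and 487 ± 536 CPM in β5i-KO mice. Some sequences were large in 1 mouse. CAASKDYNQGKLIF of TRAJ23 stood at 6511 CPM in β5t-KO replicate 2 and at 181 CPM or less in every other mouse. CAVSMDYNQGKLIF averaged 1214 ± 1578 CPM in β5t-KO and 332 ± 95.2 CPM in WT mice, and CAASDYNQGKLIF 906 ± 911 and 206 ± 221 CPM. CAVSPDYSNNRLTL, CAASDYSNNRLTL and CAVSADYSNNRLTL of TRAJ7 averaged 397, 390 and 337 CPM over all mice, and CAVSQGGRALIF and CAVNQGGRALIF of TRAJ15 averaged 295 and 251 CPM. CAVSPDYSNNRLTL and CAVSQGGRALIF were lower in every β5t-KO mouse than in any WT mouse, with means of 73.2 and 12.4 CPM against 755 and 321 CPM. The other sequences named here overlapped between these groups. Only 2 and 1 of 4 β5t-KO mice had any of the first and second. Replicates 2 and 4 had neither, and held 656 and 1743 in-frame clonotypes, against 2589 or more in WT mice. The part of depth was not tested.

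Whether the 3 J genes were used differently outside TRAV12 was tested, since those clonotypes did not choose them. Counts of in-frame clonotypes per TRAJ gene were fitted with edgeR's quasi-likelihood test over 43 TRAJ genes, with Benjamini-Hochberg adjustment. As a share of in-frame clonotypes outside TRAV12, TRAJ15 fell in β5t-KO against WT mice, from 3.61% ± 0.411 to 2.85% ± 0.351 (SD, n = 4 each). The log2 fold change was -0.30 ± 0.10 (SE, edgeR adjusted p = 0.0438). The mice of these groups overlapped, and 23.3% of all TRAJ genes were called in this comparison (10 of 43, 5 in each direction), so 1 of 3 members is close to that background. TRAJ7 (log2 fold change -0.17 ± 0.13, edgeR adjusted p = 0.486) and TRAJ23 (-0.08 ± 0.07, edgeR adjusted p = 0.582) did not pass. The call of TRAJ15 was lost under TMM factors (edgeR adjusted p = 0.0547), DESeq2 (adjusted p = 0.0589), amino acid clonotypes (0.0507) and without WT replicate 2 (0.0698), WT replicate 4 (0.217) or β5t-KO replicates 1 (0.0876), 2 (0.0687), 3 (0.0849) or 4 (0.11) in turn. The range of edgeR and DESeq2 adjusted p over all alternatives was 0.0143 to 0.217.

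The genes with the smallest p in that comparison were TRAJ52 (log2 fold change 0.93 ± 0.13, edgeR adjusted p = 2.24e-05), TRAJ57 (0.60 ± 0.14) and TRAJ12 (-0.37 ± 0.09). Among the nearest tested neighbours of the members, values are given for TRAJ16 and TRAJ6 and not for TRAJ9, TRAJ13, TRAJ24 or TRAJ22. No pattern along the locus is therefore read from them. TRAJ16, next to TRAJ15, and TRAJ6, next to TRAJ7, also fell, by log2 fold changes of -0.47 ± 0.17 and -0.50 ± 0.16 (SE, edgeR adjusted p = 0.049 and 0.0301). In BIT against β5t-KO mice 6.98% of TRAJ genes were called, TRAJ52, TRAJ12 and TRAJ27, and no member. TRAJ15 gave 0.26 ± 0.10 there (SE, edgeR adjusted p = 0.107). Its share of in-frame clonotypes outside TRAV12 was 3.61% ± 0.145 in BIT against 2.85% ± 0.351 in β5t-KO mice, without overlap. This comparison and the previous one share the β5t-KO mice.

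Against WT, β5i-KO and BIT mice had no TRAJ gene called (0% of 43 in each by edgeR and by DESeq2), with 1 and 3 genes at an unadjusted p under 0.05. BIT against β5i-KO mice also had none by edgeR or DESeq2 (0%), with 4 genes by edgeR and 0 by DESeq2 at that level. For the members, log2 fold changes in these 3 comparisons ran from -0.09 to 0.06, with standard errors of 0.05 to 0.11. On simulated counts for BIT against WT mice, 98.3% of 1.5-fold changes were recovered in this set of 43 genes.

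Out-of-frame clonotypes show how the genes were used by joins that encode no receptor. No member was called there. In β5i-KO and BIT against WT mice edgeR called no gene (0% in each), with 5 and 7 genes at an unadjusted p under 0.05, and DESeq2 called 1 and 0. In β5t-KO against WT mice 4.65% were called, TRAJ16 and TRAJ49 (edgeR adjusted p = 0.0488 for both), and 0 by DESeq2. Both calls were lost without any 1 of WT replicates 2, 3 and 4 or β5t-KO replicates 2, 3 and 4 (0 calls each). The member values in that comparison were -0.33 ± 0.34 for TRAJ7, -0.28 ± 0.26 for TRAJ15 and -0.04 ± 0.20 for TRAJ23 (log2 fold change ± SE). Only 45.8% of simulated 1.5-fold changes were recovered in this set for BIT against WT mice, and 92.5% of 2-fold changes.

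**Figure D4:**
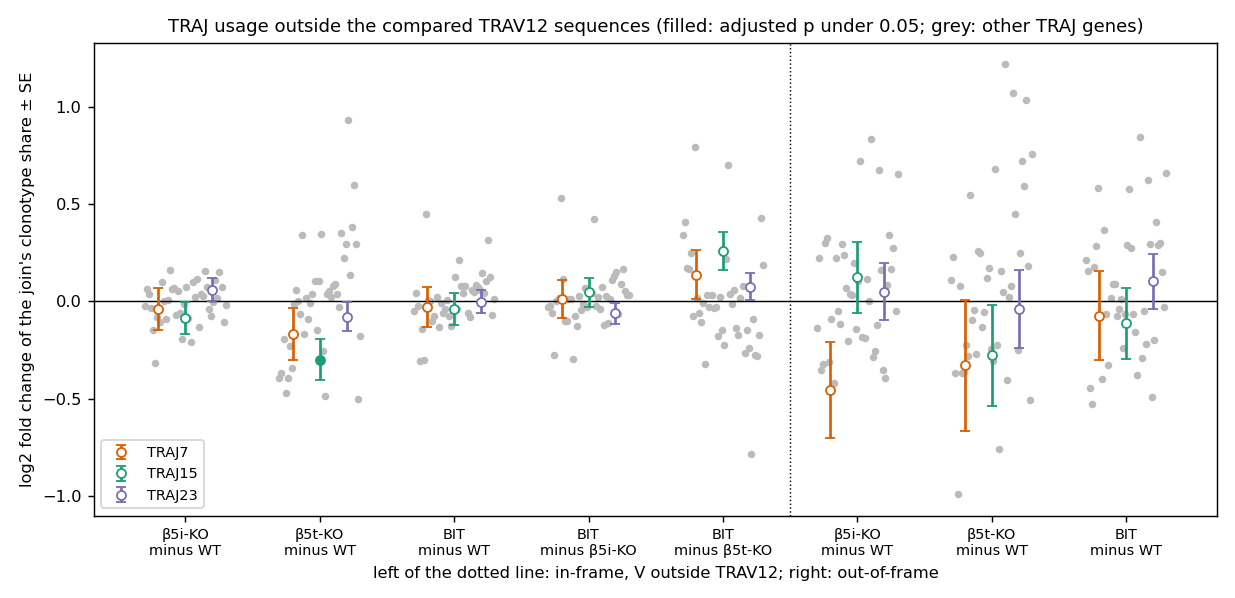
Log2 fold change of the share of each TRAJ gene ± SE in 8 comparisons, among in-frame clonotypes with V genes outside TRAV12 (left of the dotted line) and out-of-frame clonotypes (right). Coloured points are TRAJ7, TRAJ15 and TRAJ23 and grey points are other TRAJ genes. The 1 filled point is TRAJ15 in β5t-KO minus WT at -0.30.

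Partner choice was then compared between reading frames within each mouse. In-frame TRAV12 sequences of the 3 genes had a part in their choice, so their values are given without a test. TRAJ15 and TRAJ23 had a TRAV12 partner more often in-frame than out-of-frame in 17 of 17 mice. The share of TRAV12 was 37.0% in-frame and 13.7% out-of-frame for TRAJ15, a mean difference of 23.3 ± 11.2 percentage points (SD, 17 mice). For TRAJ23 it was 32.7% and 14.6%, a difference of 18.1 ± 8.65 points. TRAJ7 differed by 11.6 ± 15.1 points over 16 mice and was higher in-frame in 13 of them. β5t-KO replicate 2 had no out-of-frame TRAJ7 clonotype. All other TRAJ genes together differed by 8.49 ± 2.06 points in 17 of 17 mice (two-sided sign-flip permutation p = 3e-05).

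The size of this difference varied between the members. It was above that of the other TRAJ genes together in 17 of 17 mice for TRAJ15, 15 of 17 for TRAJ23 and 10 of 16 for TRAJ7, and this excess was not tested. By mean difference TRAJ15 ranked 1, TRAJ23 ranked 6 and TRAJ7 ranked 17 of 43 TRAJ genes. By genotype the TRAJ15 difference averaged 33.3 points in β5t-KO, 23.7 in β5i-KO, 23.0 in WT and 13.1 in BIT mice. For TRAJ23 the values were 26.7, 15.8, 18.9 and 11.8 points in that order, and for TRAJ7 0.712, 17.6, 12.3 and 11.6 points. The out-of-frame numbers behind them were small, a median per mouse of 13 clonotypes for TRAJ7 (0 to 67), 31 for TRAJ15 (1 to 108) and 40 for TRAJ23 (4 to 185).

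**Figure D5:**
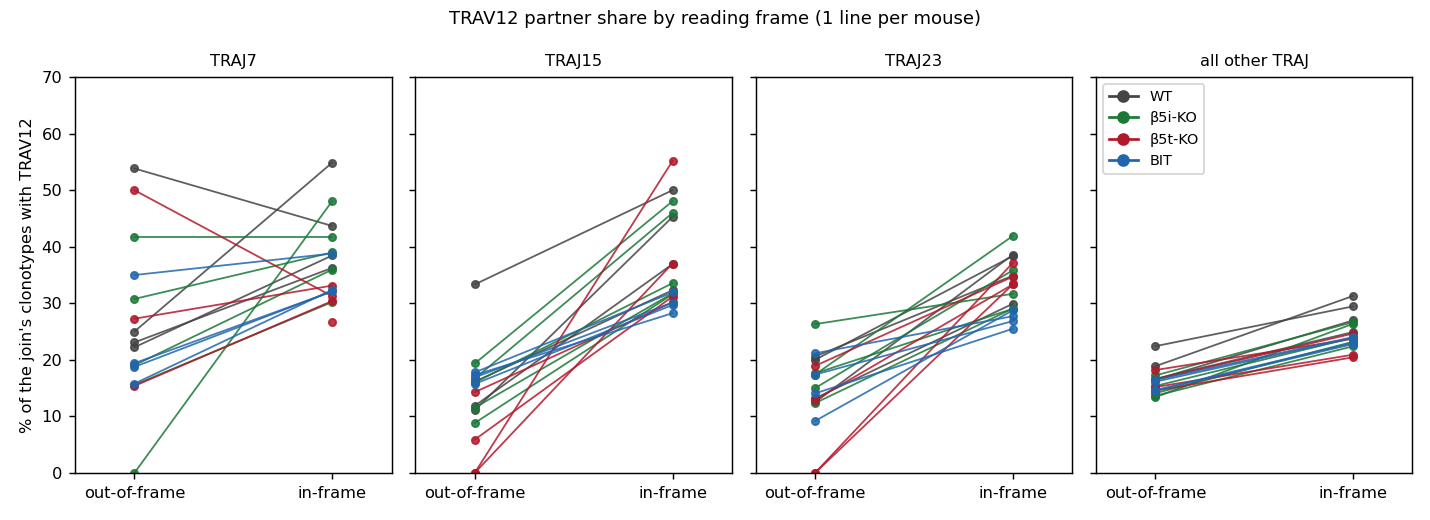
Percent of the clonotypes of TRAJ7, TRAJ15, TRAJ23 and all other TRAJ genes that have a TRAV12 partner, out-of-frame and in-frame, with 1 line per mouse coloured by genotype. The in-frame share is higher in 17 of 17 mice for TRAJ15, TRAJ23 and the other TRAJ genes, and in 13 of 16 for TRAJ7.

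CDR3 length was compared between V partners within each mouse. In-frame TRAV12 sequences had a part in the choice of the genes, so these values are also given without a test. TRAJ15 clonotypes with TRAV12 were longer than those with other V genes by 0.304 ± 0.440 residues (SD, 17 mice, 13 of them above 0). By genotype the difference was 0.993 residues in β5t-KO, 0.168 in β5i-KO, 0.110 in BIT and -0.02 in WT mice. TRAJ7 gave -0.15 ± 0.24 residues (14 of 17 mice below 0), and TRAJ23 gave -0.12 ± 0.35 residues (12 of 17 below 0). With molecules as weights TRAJ7 gave -0.00746 residues. Without β5t-KO replicate 2 TRAJ23 gave -0.18 residues.

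In β5t-KO mice the mean of this length contrast was above 0 for each join. Their mean TRAV12 CDR3 length was 13.7 residues for TRAJ7, 14.2 for TRAJ15 and 14.01 for TRAJ23, against 13.3, 13.3 and 13.6 in WT mice. The difference from other V genes was 0.183 residues for TRAJ7 and 0.354 for TRAJ23 in β5t-KO mice and below 0 on average in the other genotypes. TRAV12-1 clonotypes of TRAJ15 held 5.78 ± 1.13 untemplated bases in β5t-KO mice and 4.11 ± 0.380 in WT mice (SD, n = 4 each), and 39.2% and 66.1% of them held at most 4. For TRAJ7 the bases were 3.53 and 3.84, and for TRAJ23 4.64 and 4.55.

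The TRAJ genes most like the members across the 17 mice in their share of in-frame clonotypes with TRAV12 were TRAJ31 and TRAJ9 for TRAJ7 (Pearson r = 0.78 and 0.76), TRAJ16 and TRAJ9 for TRAJ15 (r = 0.72 and 0.61), and TRAJ32 and TRAJ22 for TRAJ23 (r = 0.60 and 0.54). These values come from the same libraries and are a description. The shares also moved with the number of clonotypes in the library (r with its log10 of -0.15, -0.63 and -0.76 for TRAJ7, TRAJ15 and TRAJ23), whose part was not tested. Along the locus, the molecules of TRAV12 joins of TRAJ9 and TRAJ6, on either side of TRAJ7, averaged 6862 and 3533 CPM in β5t-KO against 16992 and 6789 CPM in WT mice. TRAJ24 and TRAJ22, on either side of TRAJ23, averaged 2693 and 18653 CPM in β5t-KO against 3856 and 16954 CPM in WT mice. TRAJ16 and TRAJ13 beside TRAJ15 averaged 4335 and 5217 CPM against 4574 and 9651 CPM. Among the 6 neighbours TRAJ22 alone had the higher mean in β5t-KO mice.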

How the data were processed

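The authors sorted CD8 T cells, made libraries with the SMARTer Mouse TCR a/b kit and built clones from the reads in MiXCR. Its version and settings are not given in the sources used here. The deposited tables give read counts and unique molecule counts per clone, per mouse, not normalised. The TCR β tables were not used. The labels name mm10, but the tables hold no coordinates, so germline positions are those of GRCm39.

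Clones were in-frame when CDR3 held no frame shift or stop codon, and the first listed V and J gene was used. Identical V, J and CDR3 rows in a library were summed. Levels were computed as molecules per 1000000 in-frame molecules. TRAJ genes with at least 5 clonotypes in at least 4 libraries were tested with edgeR 4.0.16 (library sizes, all 4 groups in 1 fit, threshold 0.05) in R 4.3.3. The within-mouse contrast of the other TRAJ genes together used a sign-flip permutation test with 100000 resamples. Alternatives included DESeq2 1.42.0, TMM, molecules, thinning to 14772 molecules, a replicate block and each mouse left out. Thinning, amino acid clonotypes and lengths without CALSDRY were added after seeing the data. The count test was checked on simulated counts. Of 28 pairs of libraries within a group, 0 were identical. Other values came from Python 3.11.15, pandas 2.3.3, NumPy 2.4.6 and SciPy 1.17.1, and were drawn with Matplotlib 3.10.9. Each library is from an individual mouse per the protocol in the labels. Deposited clone fractions were not used.

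The members and lists were chosen with earlier results of these data known. Named were the members, the 3 sequences with the highest mean CPM per join and V class, neighbouring and most similar TRAJ genes, at most 3 called TRAJ genes per comparison and at most 3 V genes per join. Residues are not spelled out for the longer TRAJ15 forms.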

Additional observations from a re-analysis of the deposited data

Results flagged for a closer look

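In groups of 4 or 5 mice, 13 of 145 sets of values held 1 mouse far from the rest of its group, where chance gives about 1 in 20. TRAJ7 with TRAV12 made 1.98% of in-frame molecules in WT replicate 1, against at most 1.49% in the other WT mice. TRAJ15 with TRAV12 made 2.44% of in-frame clonotypes in β5t-KO replicate 2, the library with the fewest clonotypes, against at most 1.15% in the other β5t-KO mice. TRAJ23 with other V genes made 2.91% in β5i-KO replicate 2, below 3.22% or more in its group. The in-frame minus out-of-frame share of TRAV12 for the other TRAJ genes together was 12.99 points in β5i-KO replicate 5 and 8.13 points in β5t-KO replicate 3, the highest of their groups.

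Among sequences, CAVSPDYSNNRLTL of TRAJ7 stood at 1780 CPM in WT replicate 1. The TRAJ15 form with arginine then arginine was at 41.4 CPM in WT replicate 4 and 0 in other WT mice, and the form with arginine then tyrosine was at 67.7 CPM in β5i-KO replicate 1 and 0 in other β5i-KO mice. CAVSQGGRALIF of TRAJ15 was at 1268 CPM in β5i-KO replicate 5 and at 49.4 CPM in β5t-KO replicate 1, the 1 mouse of its group with any. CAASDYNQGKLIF of TRAJ23 was at 2267 CPM in β5t-KO replicate 4. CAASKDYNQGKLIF of TRAJ23 was at 112 CPM in WT replicate 3, with 0 in other WT mice, and at 6511 CPM in β5t-KO replicate 2.

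The difference in CDR3 length between TRAV12 and other V partners of TRAJ23 was above 0 in every β5t-KO mouse and below 0 in every β5i-KO and BIT mouse, while WT mice had both signs. It averaged 0.354 residues in β5t-KO, -0.28 in β5i-KO and -0.41 in BIT mice. The difference between groups was not tested.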

How the results depend on the processing

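The count of TRAJ genes called outside TRAV12 in β5t-KO against WT mice was 10 and became 6 under DESeq2, 3 without WT replicate 4, 2 without β5t-KO replicate 1 and 5 without β5t-KO replicate 3, with a range of 2 to 10 over all mice left out. In BIT against β5t-KO mice it was 3 and became 7 with molecules, 9 with the replicate block and 9 after thinning, with 1 to 5 when 1 mouse was left out (1 without β5t-KO replicate 3, 5 without BIT replicate 5). Out of frame, β5t-KO against WT had 2 calls, which became 1 under TMM and 0 under DESeq2, with molecules, with clones of at least 2 molecules, in the 2 groups alone, with BIT replicate 3 included, with the replicate block and after thinning, and 0 to 2 with 1 mouse left out. DESeq2 gave 1 for β5i-KO and the replicate block gave 1 for BIT against WT out of frame. TRAJ15 in β5t-KO against WT outside TRAV12 had an edgeR adjusted p of 0.051 with the replicate block. The untested TRAJ7 length difference was -0.00746 residues with molecules as weights, -0.13 with clones of at least 2 molecules and -0.12 with BIT replicate 3 included. It ran from -0.18 to -0.13 with 1 mouse left out. That of TRAJ23 ran from -0.179 to -0.088. The cause was not tested. Of the values that answer a comparison, 337 were classed as the same, 7 as stronger and 32 as weaker. Counts were the same when near the main count, and within-mouse contrasts when sign and side of the threshold held. The within-mouse contrasts classed include those of the members, which are given above without a test. The classes are therefore no evidence for those contrasts. Clonotype shares were the same when they moved by less than their SD, whatever their sign. With 1 mouse left out, the clonotype share of TRAJ23 with TRAV12 in β5t-KO minus WT mice ran from -0.0685 to 0.135 points, so its sign was not stable. No within-mouse contrast reversed. Same-numbered mice are different animals, and 10 of 22 such pairs correlated above 0.1 in-frame and 8 out of frame. Their median r was 0.094 in-frame against -0.012 for other pairs, and 0.036 against -0.003 out of frame. Whether mice of the same number share anything was not tested. Depth limits the out-of-frame counts and the sequences absent from BIT mice.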

Other observations

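The libraries left out of the comparisons held 0 molecules of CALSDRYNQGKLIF, CALSDRYSNNRLTL and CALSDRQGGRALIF. β5t-KO replicate 5 had 1112 in-frame molecules, which allows a share of up to 0.27% for each, and BIT replicate 3 had 43493, which allows up to 0.0069%. The 4 β5t-KO mice compared held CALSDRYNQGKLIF at 4.28% to 6.09% and CALSDRYSNNRLTL at 1.31% to 2.89% of in-frame molecules. By molecules alone β5t-KO replicate 5 lay below all of them. These limits cover the counting of molecules only. The 2 libraries held 24 and 475 in-frame clonotypes, so absence from them says little about the mice. In WT mice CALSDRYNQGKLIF made 0.420% to 1.21% of in-frame molecules and CALSDRYSNNRLTL 0.119% to 0.366%.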
